A study of Mus musculus with 8 samples.

Results

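Calcineurin, its RCAN regulators and the NFAT transcription factors were followed as 9 genes in the gastrocnemius of mice in which Akt1 was switched on in muscle fibres. The members were taken by symbol from the gene table: the catalytic subunits Ppp3ca and Ppp3cb, the regulatory subunit Ppp3r1, Rcan1 and Rcan2, and Nfatc1, Nfatc2, Nfatc3 and Nfatc4. They are 9 of 30743 genes in the table, and all 9 were among the 15073 genes with enough signal to be tested.

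RNA-seq was performed on the gastrocnemius of 8 male mice of strain Myo L8, each a separate animal. DTG mice (n = 4) carried both the 1256[3Emut]Mck-rtTA transgene and TRE-myrAkt1, and MckrtTA mice (n = 4) carried Mck-rtTA alone. All 8 were 4 months old, had drunk water with 0.5 mg/ml doxycycline for 2 weeks and were starved overnight, so the groups differ by the TRE-myrAkt1 transgene. The modified Mck promoter drives rtTA in skeletal muscle fibres, and the transgene encodes a myristoylated Akt1, so induction is directed at the fibres of a tissue that also holds other cells.

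Calcineurin is a phosphatase that is switched on by calcium and calmodulin. It removes phosphates from NFAT proteins, which then enter the nucleus and switch on target genes, while kinases such as GSK3 and DYRK put the phosphates back. RCAN proteins bind calcineurin and can inhibit it, and a short form of Rcan1 is itself a target of NFAT. In skeletal muscle the pathway is best known for its part in slow fibre gene expression. These functions rest on phosphorylation and protein location, which RNA levels do not show.

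Each value is an estimate of the reads of 1 gene, scaled by the authors so that the 75th percentile of each library is 1000, and is called signal here. Reads assigned per library were 46.0 to 54.0 M in DTG mice and 45.6 to 58.6 M in MckrtTA mice, and the members had an estimated 155 to 37334 reads in a library. Calls of higher or lower required a fold of at least 2 on the log2 of signal plus 10 and, from limma, an adjusted p (Benjamini-Hochberg) below 0.005. Akt1 stood at 53654 ± 14928 (SD, n = 4 mice) in DTG and 4622 ± 471 (SD, n = 4 mice) in MckrtTA mice, with all DTG mice above all controls, and its signal does not separate transgene from endogenous transcripts. Summed signal was 1.91 times as high in MckrtTA as in DTG libraries. The median log2 fold change over the tested genes was -0.26. It became 0.65 when totals were set equal, which is a shift of 0.92, and it shifted by 0.29 under a trimmed mean of log ratios. DTG mouse 253 stood apart from the other DTG mice in several members, so their values are also given without it. As a check of the labelled tissue, 7 myofibre markers summed to 16304327 to 18411144 in MckrtTA and to 4455351 to 9519151 in DTG mice. Of these 3 were called lower, where 16.0% of all tested genes were, and 4 were not called. The 8 macrophage markers summed to 3987 to 5183 in MckrtTA and to 58549 to 184907 in DTG mice. All 8 were called higher, where 14.6% of all tested genes were. The sum was lowest of the DTG mice in mouse 253, although Itgam alone of these markers was highest in it. The part of these cell type differences in the results below was not tested, and in bulk RNA fewer cells of a type and less RNA per cell cannot be told apart.

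The 2 catalytic subunit genes were lower in DTG muscle, and Ppp3cb was the more reduced. Of the 9 members 3 were called lower (Ppp3ca, Ppp3cb and Nfatc1), 0 were called higher and 6 were not called, where 16.0% of all tested genes were called lower and 14.6% higher, 30.6% in either direction. The 4 DTG values lay below all 4 control values in 7 members and above them in 1, where 40.4% of all tested genes lay all below and 22.2% all above, 62.7% in either direction. Members called lower were 0 at equal totals (2.00% of all tested genes) and 1 was called higher (30.8%). They were 2 after a trimmed mean of log ratios (8.33%), 2 after a median of ratios (8.50%) and 5 without mouse 253 (19.1%). With an adjusted p under 0.05 and no fold minimum, 7 were lower (44.1%) and 1 higher (25.6%). The members had a median log2 fold change of -0.94, against -0.26 over the tested genes, and at equal totals it was 0.00 against 0.65.

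**Figure D1:**
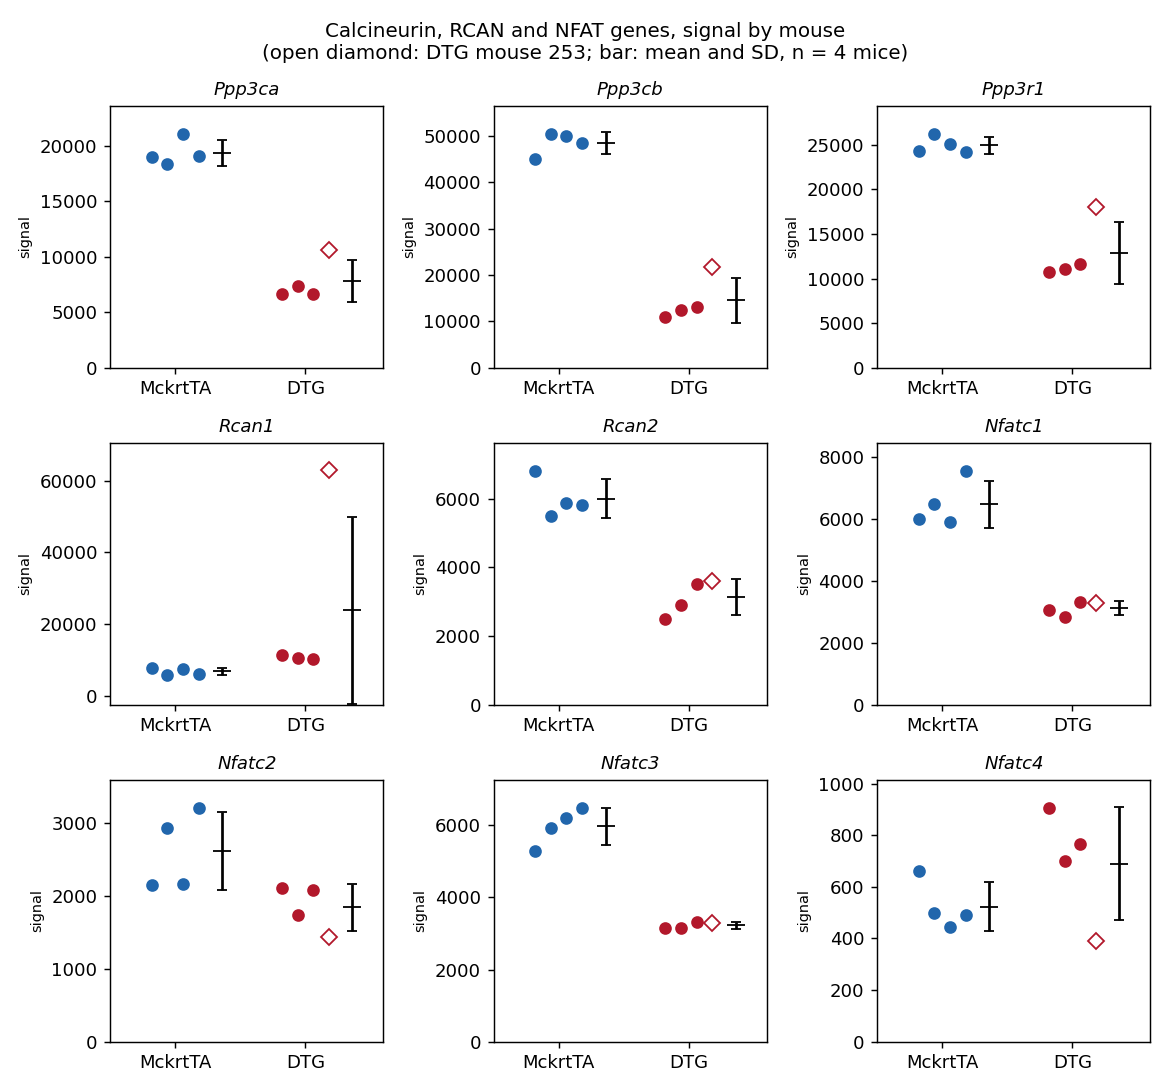
Signal (75th percentile of each library set to 1000, linear axis) of each of the 9 genes in 4 MckrtTA (blue) and 4 DTG (red) mice, with DTG mouse 253 as an open diamond and the mean and SD of each group in black. DTG mice lie below all MckrtTA mice for 7 genes, above them for Rcan1, where mouse 253 stands at 62870, and on both sides of them for Nfatc4.

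Ppp3ca, the catalytic subunit Aα, spans 136670770 to 136935779 on mm10 chromosome 3. Its signal was 6675, 7353, 6628 and 10617 in DTG mice 283, 282, 306 and 253, and 19023, 18333, 21028 and 19052 in MckrtTA mice 255, 280, 281 and 307. All DTG mice lay below all controls, and mouse 253 was the highest of the DTG mice. This gave a log2 fold change of -1.33 (standard error 0.15, limma adjusted p = 5.55e-05), and -1.49 without mouse 253.

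Ppp3cb, the catalytic subunit Aβ, spans 20499314 to 20546573 on mm10 chromosome 14. Its signal was 10922, 12511, 13094 and 21622 in DTG mice 283, 282, 306 and 253, and 44920, 50306, 49872 and 48497 in MckrtTA mice 255, 280, 281 and 307. The groups did not overlap, with mouse 253 again nearest to the controls. Its log2 fold change was -1.78 (standard error 0.19, limma adjusted p = 4.32e-05), the largest fall among the 9, and it was -1.99 without mouse 253. At equal totals both catalytic subunits stayed lower but under a fold of 2, at -0.38 (limma adjusted p = 0.0013) for Ppp3ca and -0.84 (6.79e-05) for Ppp3cb.

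Ppp3r1, the calcium-binding regulatory subunit, spans 17151139 to 17200380 on mm10 chromosome 11. Its signal was 10745, 11065, 11618 and 18004 in DTG mice 283, 282, 306 and 253, and 24263, 26185, 25115 and 24218 in MckrtTA mice 255, 280, 281 and 307. All DTG mice lay below all controls. A log2 fold change of -0.99 (standard error 0.16, limma adjusted p = 4.69e-04) was just under the fold of 2, so Ppp3r1 was not called. It was called lower without mouse 253, at -1.16, and was also called without MckrtTA mouse 255 (-1.002) or 307 (-1.003). At equal totals it was -0.04.

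The ratio of subunit signals within a library does not depend on the scaling between libraries. Ppp3cb over Ppp3r1 was 1.02, 1.13, 1.13 and 1.20 in DTG mice 283, 282, 306 and 253, and 1.85, 1.92, 1.99 and 2.00 in MckrtTA mice 255, 280, 281 and 307. The groups were far apart relative to their spread, by -0.80 on the log2 scale, and mouse 253 was with the other DTG mice. Ppp3ca over Ppp3r1 was 0.61 ± 0.04 (SD, n = 4 mice) in DTG and 0.78 ± 0.06 (SD, n = 4 mice) in MckrtTA mice, a log2 difference of -0.35. Ppp3ca over Ppp3cb was 0.55 ± 0.06 (SD, n = 4 mice) in DTG and 0.40 ± 0.03 (SD, n = 4 mice) in MckrtTA mice, a log2 difference of 0.45. None of these 3 ratios overlapped between the groups. Each had a two-sided exact permutation p of 0.0286, the smallest that 4 against 4 can give, and 0.05 after adjustment over the 7 ratios tested. Ppp3ca over Ppp3cb is set by the ratios to Ppp3r1 and is not a separate result. Of single tested genes 62.7% did not overlap between the groups, and no such share was computed for ratios. In every DTG mouse Ppp3r1 was higher relative to either catalytic subunit, and Ppp3ca higher relative to Ppp3cb, than in any control.

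Signal per kilobase allows levels of different genes to be set side by side. Lengths were the mean of GENCODE M21 transcripts that carry a RefSeq accession listed for the gene in the table. In MckrtTA mice Ppp3cb was highest at 12633 ± 638 per kilobase (SD, n = 4 mice), followed by Ppp3ca at 8824 ± 529 and Ppp3r1 at 8725 ± 323, whose ranges overlapped. Rcan1 (3059 ± 401), Rcan2 (1926 ± 179), Nfatc1 (1418 ± 165), Nfatc3 (998 ± 84.9), Nfatc2 (565 ± 116) and Nfatc4 (149 ± 27.3) followed, with separate ranges between all these neighbours. In DTG mice Rcan1 led at 10567 ± 11527 per kilobase (SD, n = 4 mice), with mouse 253 at 27855, and its range overlapped that of Ppp3r1 (4497 ± 1207). Ppp3cb (3795 ± 1256) and Ppp3ca (3564 ± 864) overlapped each other and Ppp3cb overlapped Ppp3r1. The order from Rcan2 downwards was the same as in the controls. The place of Nfatc2 depends on its length, since its transcripts run from 2310 to 6828 bases. With the shortest it would stand at 1133 per kilobase in MckrtTA mice, above Nfatc3, and at 799 in DTG mice, above Nfatc1.

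Rcan1 was the only member with all DTG mice above all controls, and most of its mean difference came from mouse 253. The gene encodes a regulator that binds calcineurin, and spans 92391953 to 92466146 on mm10 chromosome 16. Its signal was 11422, 10720, 10385 and 62870 in DTG mice 283, 282, 306 and 253, and 7769, 5993, 7587 and 6266 in MckrtTA mice 255, 280, 281 and 307. Mouse 253 stood at 5.80 times the mean of the other DTG mice and 9.11 times the control mean, while the other DTG mice averaged 1.57 times the controls. Among 15073 genes, Rcan1 ranked 24 by the excess of mouse 253 over the other DTG mice. With all mice, the log2 fold change of 1.29 (standard error 0.52, limma adjusted p = 0.0498) was not called. Without mouse 253 it was 0.66 (standard error 0.10, limma adjusted p = 2.21e-04), a smaller value with a smaller error and also not called, and at equal totals with all mice it was called higher at 2.24 (limma adjusted p = 0.00149).

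RefSeq places the starts of Rcan1 transcripts at 2 sites, an internal one within the deposited gene range and an upstream one 23 bases beyond its end, and the gene signal does not separate them. Promoter windows of 300 bases, from 250 before to 50 after a start site, were in the RefSeq table for 7 of the 9 members (GRCm38.p6, the assembly of mm10). They are shown for Rcan1, because the internal start is the one that the short form uses, and for Ppp3cb, the member with the largest fall. Capitals mark the core letters of an NFAT site, GGAAA or its reverse complement TTTCC, searched on both strands; all are on the minus strand of the chromosome and read 5′ to 3′.
Rcan1, upstream start, chr16:92466120-92466419: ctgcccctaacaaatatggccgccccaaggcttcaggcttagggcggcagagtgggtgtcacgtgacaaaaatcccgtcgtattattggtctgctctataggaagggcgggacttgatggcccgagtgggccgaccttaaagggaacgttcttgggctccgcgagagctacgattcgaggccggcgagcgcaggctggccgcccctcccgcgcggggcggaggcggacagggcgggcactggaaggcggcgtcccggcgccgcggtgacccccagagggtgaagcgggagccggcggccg
Rcan1, internal start, chr16:92400029-92400328: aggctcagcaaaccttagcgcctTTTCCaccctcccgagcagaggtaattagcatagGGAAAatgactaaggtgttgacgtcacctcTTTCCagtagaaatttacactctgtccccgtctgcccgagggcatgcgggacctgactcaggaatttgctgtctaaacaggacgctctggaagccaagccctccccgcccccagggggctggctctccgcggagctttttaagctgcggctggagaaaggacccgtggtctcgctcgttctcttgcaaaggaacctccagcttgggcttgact
Ppp3cb, chr14:20546524-20546823: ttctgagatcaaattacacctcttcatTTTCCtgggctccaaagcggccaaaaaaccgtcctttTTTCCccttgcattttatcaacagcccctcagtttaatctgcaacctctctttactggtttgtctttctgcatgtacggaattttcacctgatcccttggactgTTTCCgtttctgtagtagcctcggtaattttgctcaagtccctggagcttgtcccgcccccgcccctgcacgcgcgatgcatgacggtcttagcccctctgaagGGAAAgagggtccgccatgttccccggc

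The upstream Rcan1 window held 0 matches to the core. The internal window held 3 matches, at 227, 193 and 163 bases before the start, together with 1 match to the CRE letters TGACGTCA at 175 bases and 1 to the AP-1 letters TGANTCA at 110 bases, none overlapping a core match. The Ppp3cb window held 4 core matches. Among the member windows not shown, an Nfatc2 window and the Nfatc4 window also held 3 each. Of 32851 windows of this length, 61.3% held 1 or more core matches and 9.42% held 3 or more, 1.79% held the CRE letters and 7.81% the AP-1 letters. A match of letters is a description of the window and not evidence of binding, and the gene-level signal does not show which start was used in any mouse.

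Rcan2, the second RCAN regulator, spans 43801851 to 44039516 on mm10 chromosome 17, and its values lay on the other side of the controls from those of Rcan1. Its signal was 2507, 2913, 3506 and 3612 in DTG mice 283, 282, 306 and 253, and 6794, 5501, 5881 and 5812 in MckrtTA mice 255, 280, 281 and 307. All DTG mice lay below all controls, and mouse 253 was close to mouse 306. The log2 fold change was -0.94 (standard error 0.13, limma adjusted p = 1.80e-04), under the fold of 2. It was called lower without mouse 253 (-1.02) or without mouse 306 (-1.004), and at equal totals the difference was 0.00.

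Rcan1 over Rcan2 was 4.56, 3.68, 2.96 and 17.4 in DTG mice 283, 282, 306 and 253, and 1.14, 1.09, 1.29 and 1.08 in MckrtTA mice 255, 280, 281 and 307. Every DTG mouse was above every control, with or without mouse 253. The share of other gene pairs with such separate ratios was not computed. The log2 difference was 2.24 (two-sided exact permutation p = 0.0286, adjusted p = 0.05 over the 7 ratios), and 1.68 without mouse 253.

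**Figure D2:**
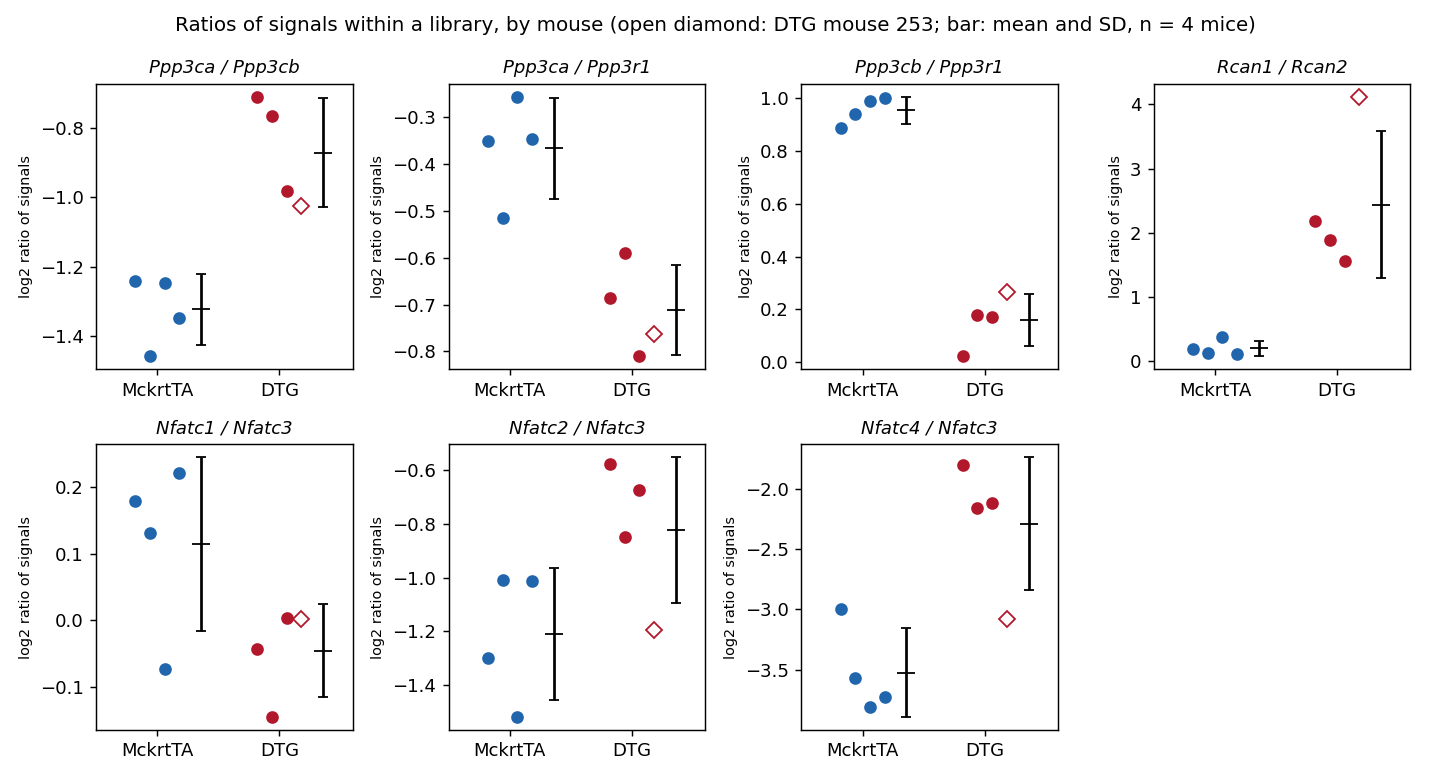
Log2 ratio of the signals of 2 genes within each library in 4 MckrtTA (blue) and 4 DTG (red) mice, with mouse 253 as an open diamond and the mean and SD in black. The 3 calcineurin subunit ratios and Rcan1 over Rcan2 are separate between the groups, while the 3 NFAT ratios overlap.

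Of the NFAT genes, Nfatc1 was called lower, Nfatc2 and Nfatc3 had lower values in all DTG mice without being called, and Nfatc4 overlapped between the groups. Nfatc1 (mm10 chromosome 18, 80606205 to 80713071) had signals of 3063, 2842, 3331 and 3295 in DTG mice 283, 282, 306 and 253, and 5990, 6474, 5905 and 7545 in MckrtTA mice 255, 280, 281 and 307. All DTG mice lay below all controls, and mouse 253 was among the other DTG mice. The log2 fold change of -1.04 (standard error 0.10, limma adjusted p = 2.69e-05) stood close to the fold threshold. It was not called without DTG mouse 282 (-0.996), without MckrtTA mouse 307 (-0.97), after a trimmed mean of log ratios (-0.74) or at equal totals (-0.09).

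Nfatc2 (mm10 chromosome 2, 168476410 to 168601655) had signals of 2113, 1745, 2084 and 1436 in DTG mice 283, 282, 306 and 253. The controls stood at 2151, 2939, 2169 and 3207 in mice 255, 280, 281 and 307. The highest DTG mouse and the lowest control were close. Control mice 255 and 281, with the lower values, were in sequencing lane 1, and 280 and 307 were in lane 8. The DTG mice did not follow this order, since lane 1 held the highest of them, 283, and the lowest, 253. The log2 fold change of -0.50 (standard error 0.17, limma adjusted p = 0.0286) was not called, and it was -0.38 without mouse 253. At equal totals its sign turned, to 0.45.

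Nfatc3 (mm10 chromosome 8, 106058840 to 106130537) had signals of 3154, 3142, 3324 and 3290 in DTG mice 283, 282, 306 and 253, and 5291, 5910, 6211 and 6471 in MckrtTA mice 255, 280, 281 and 307. The DTG mice were within a narrow band below the controls, mouse 253 included. The log2 fold change was -0.88 (standard error 0.09, limma adjusted p = 2.48e-05), under the fold of 2, and at equal totals it was 0.07.

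Nfatc4 (mm10 chromosome 14, 55824795 to 55833943) was the least abundant member per kilobase in both groups. Its signal was 905, 700.7, 766 and 390 in DTG mice 283, 282, 306 and 253, and 663, 497, 444 and 490 in MckrtTA mice 255, 280, 281 and 307. DTG mice 283, 282 and 306 were above all controls and mouse 253 was below them. The log2 fold change was 0.35 (standard error 0.25, limma adjusted p = 0.239), with a 95% interval of -0.22 to 0.91. Without mouse 253 it was 0.59 (limma adjusted p = 0.00543), and at equal totals 1.28 (limma adjusted p = 0.01), in neither case called.

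Within a library, the NFAT ratios gave no separate groups with all mice. Nfatc1 over Nfatc3 differed by -0.16 on the log2 scale and Nfatc2 over Nfatc3 by 0.39, each with a two-sided exact permutation p of 0.114. Nfatc4 over Nfatc3 was 0.215 ± 0.070 (SD, n = 4 mice) in DTG and 0.0891 ± 0.0247 (SD, n = 4 mice) in MckrtTA mice, a log2 difference of 1.23 with a two-sided exact permutation p of 0.0571. After adjustment over the 7 ratios these were 0.114, 0.114 and 0.08.

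**Figure D3:**
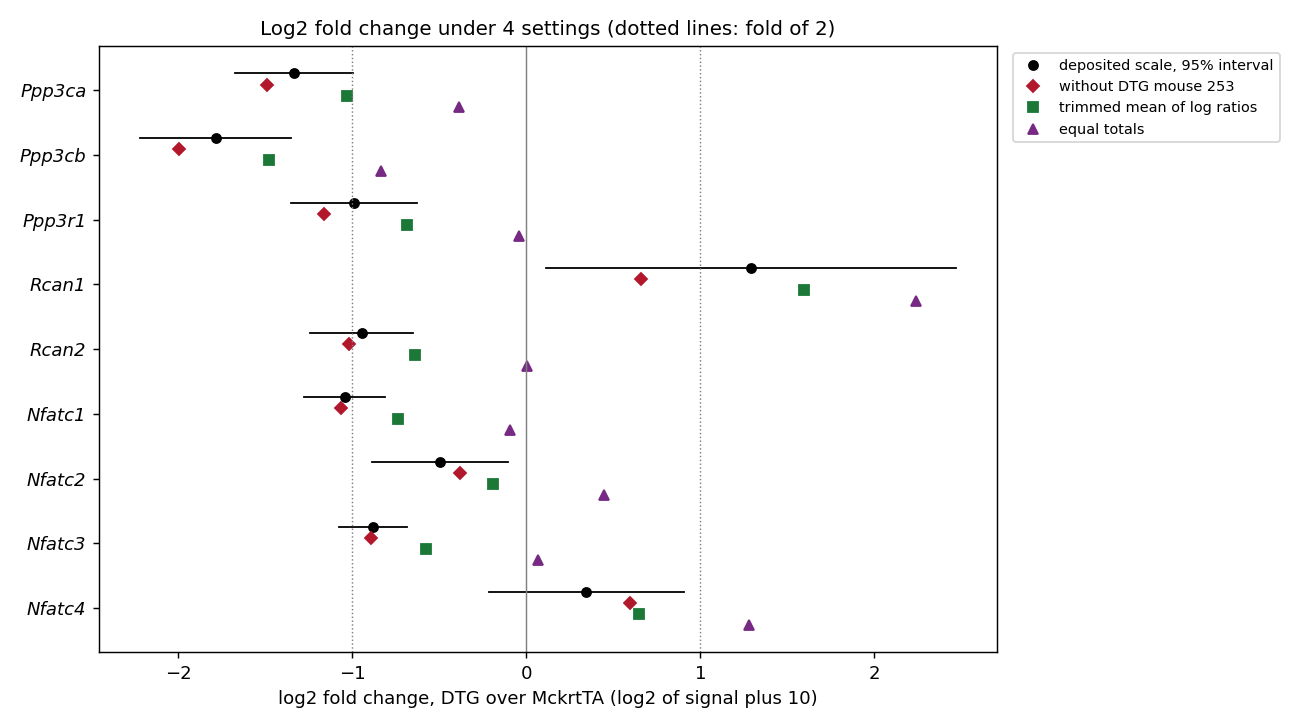
Log2 fold change of DTG over MckrtTA for the 9 genes on the deposited scale with its 95% interval (black), without DTG mouse 253 (red), after a trimmed mean of log ratios (green) and at equal totals (purple), with dotted lines at a fold of 2. Ppp3cb is furthest below 0 under each of the 4 settings, and equal totals move Rcan2, Nfatc2 and Nfatc3 above 0.

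The remaining genes of the 3 families gave values of their own. Ppp3cc, the catalytic subunit Aγ that is most abundant in testis, was called lower, with 830, 975, 1009 and 1597 in DTG mice 283, 282, 306 and 253 against 2544 to 2741 in controls. Its log2 fold change was -1.30 (standard error 0.18, limma adjusted p = 1.78e-04), so all 3 catalytic genes were called lower on the deposited scale. It was not called at equal totals (-0.35) or after a trimmed mean of log ratios (-0.99). Rcan3 was not called at 0.53 (limma adjusted p = 0.00105), although all DTG mice (1056 to 1273) lay above all controls (756 to 840). Nfat5, which responds to osmotic stress and is not regulated by calcineurin, was not called at 0.19 (limma adjusted p = 0.113). At equal totals both were called higher, Rcan3 at 1.47 (limma adjusted p = 1.01e-04) and Nfat5 at 1.14 (2.87e-05). Ppp3r2, the regulatory subunit of testis, was above 0 in 1 library alone and was not tested.

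Genes with the most similar profile were sought for the called members by Pearson's r of log2 signal plus 10 over the 8 libraries, which is high for many genes because the groups differ. For Ppp3ca they were 9430023L20Rik, St3gal3 and Msl3, with r from 0.9988 to 0.9995. For Ppp3cb they were Skp1a, Cisd3 and 2210408F21Rik, with r from 0.9994 to 0.9995, and for Nfatc1 they were Srrm1, Pcif1 and Pik3c3, with r from 0.9959 to 0.9974. For Rcan1, added after its values were seen, Sgpp1 was the most similar, with r of 0.9943. Sgpp1 shared the high value of mouse 253, at 16287 against 3600 to 3761 in the other DTG mice.

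Upstream of calcineurin, the genes of calmodulin and store-operated calcium entry gave calls in both directions, with Orai2 the 1 called higher. Of 10 tested, 3 were called lower (16.0% over all tested genes), 1 higher (14.6%) and 6 were not called, with a median log2 fold change of -0.55 against -0.26 for all tested genes. The lower genes included Calm3 (log2 fold change -1.66), which encodes calmodulin, and Stim1 (-1.103), the calcium sensor of the sarcoplasmic reticulum. At equal totals 0 of the 10 were called lower, and 1 after a trimmed mean of log ratios. Orai2, a pore subunit of the store-operated channel, stood at 918, 826, 850 and 463 in DTG mice 283, 282, 306 and 253 against 94.9 to 160 in controls. This was a log2 rise of 2.61 (limma adjusted p = 2.04e-05), while Orai1 was not called at -0.10.

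Among 12 genes that inhibit, anchor or turn over calcineurin, 3 were called lower, 2 higher and 7 were not called, with a median of -0.59 against -0.26. These shares are near the 16.0% and 14.6% of all tested genes. Myoz1 and Myoz3, Z-disc proteins that bind calcineurin, had log2 fold changes of -2.10 and -1.35. Fbxo32, the ubiquitin ligase atrogin-1, fell by 2.39 on the log2 scale. It had a wide range in both groups, from 10330 to 41657 in DTG and from 53392 to 175631 in MckrtTA mice. Ppia, the cyclophilin that binds cyclosporin, rose by 1.18 and Cib1, a calcium-binding protein, rose by 1.23. At equal totals 1 of the 12 was called lower and 4 higher, where 2.00% and 30.8% of all tested genes were. Lmcd1 was not called, and mouse 253 again led it, at 41105 against 10866 to 12569 in the other DTG mice.

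The kinases that oppose calcineurin on NFAT, and the Homer proteins that compete with it, had 7 of 13 called lower on the deposited scale, where 16.0% of all tested genes were. The other 6 were not called, the median was -1.18 against -0.26, and the 4 with the smallest adjusted p were Dyrk1b (-1.74), Mapk9 (-1.40), Gsk3a (-1.18) and Gsk3b (-1.28). At equal totals 0 of the 13 were called lower (2.00% of all tested genes) and 1 was called higher, with a median of -0.23 against 0.65, and after a trimmed mean of log ratios 3 were called lower (8.33%). Homer3 was the only one of the 13 with all DTG mice above all controls, at 517 to 856 against 382 to 438, and was not called at 0.87 with all mice. Without mouse 253 it was called higher at 1.04. Of 10 other calcineurin substrates, 1 was called lower, the transcription factor gene Foxo1 (-1.04), and 9 were not called, a share near the 16.0% of all tested genes. Foxo1 was not called at equal totals (-0.10), after a trimmed mean of log ratios or a median of ratios, or without DTG mouse 283, MckrtTA mouse 255 or MckrtTA mouse 280.

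Genes linked to NFAT in muscle fibres, and its targets in lymphocytes and osteoclasts, were read for comparison. Of 10 genes listed for slow and oxidative fibres, 3 were called lower (16.0% over all tested genes) and 0 higher, with a median of -0.64 against -0.26. They were Myl2 (-1.32) and Myl3 (-1.36), light chains of slow myosin, and Myh2 (-1.495), which encodes the myosin heavy chain of fast type IIa fibres, while the slow heavy chain gene Myh7 was not called at -1.20 (limma adjusted p = 0.0102). That count was 1 without any one of 5 of the 8 mice and 4 at most, 1 after a trimmed mean of log ratios and 0 at equal totals. Of 12 NFAT target genes of lymphocytes 5 had enough signal to be tested, and 4 were called higher, where 14.6% of all tested genes were. The 4 were Tnf (2.29), Egr2 (2.47), Egr3 (2.89) and Ctla4 (2.20). The other tested one, Pdcd1, was listed at 0 in every control and in mouse 253. Tnf, Ctla4 and Pdcd1 reached the minimum signal of 25 in DTG libraries alone, so they could be tested only because they were high there, and the count of calls supports nothing about the list. The levels were low, with Ctla4 at 113, 193, 192 and 32.0 in DTG mice 283, 282, 306 and 253 against 11.9 to 22.9 in controls. Tnf stood at 57.6 to 98.7 in DTG mice against 5.93 to 8.99 in controls. The size of the folds of Tnf and Ctla4 therefore depends on the 10 added to the signal. Without MckrtTA mouse 307, 2 of the 5 were called. The 7 T cell markers summed to 126 to 707 in DTG and 138 to 336 in MckrtTA mice, with mouse 253 lowest. These sums join markers that went opposite ways. Of 5 tested, 3 were called higher (Lck, Cd3g and Cd4), all of which reached the minimum signal in DTG libraries alone. Cd247 was called lower (-1.36) and, at 109 to 297, made up most of the control sums. Over all tested genes 14.6% were called higher and 16.0% lower. The part of T cells in these values was not tested.

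Of 8 NFATC1 target genes of osteoclasts 7 were tested, and 6 were called higher, where 14.6% of all tested genes were. Of the 6, Atp6v0d2 and Dcstamp reached the minimum signal in DTG libraries alone, so the count is partly set by the filter. The other 4 reached it in controls too. The count was 4 to 6 when 1 mouse was left out, 4 in lane 8 alone and 0 in lane 1 alone. Atp6v0d2, a proton pump subunit, stood at 1858, 2087, 2321 and 178 in DTG mice 283, 282, 306 and 253. Controls stood at 4.49 to 14.8, and the log2 rise was 5.94 (limma adjusted p = 8.89e-05). Atp6v0d2 could be tested only because it was high in DTG libraries. Its control values were close to the amount added to the signal, so the size of its fold depends on that amount. Acp5, an acid phosphatase, rose by 3.18, and Itgb3, an integrin subunit, by 1.37. Dcstamp, a fusion protein, was at 11.9 to 55.1 in DTG mice and listed at 0 in all 4 controls, so no fold is given. Mouse 253 was lowest of the DTG mice for Atp6v0d2, Acp5 and Ctsk and highest for Mmp9, at 875 against 214 to 396. For Itgb3 (337) and Dcstamp (37.05) it was in between. These genes are also expressed by macrophages, whose 8 markers were all called higher (14.6% of all tested genes). When summed, the 8 markers were lowest of the DTG mice in mouse 253. Of those markers Itgam was highest in mouse 253, at 10023 against 5175 to 7102 in the other DTG mice. Fibroblast markers, with 4 of 5 called higher (14.6% of all tested genes), also had their lowest DTG sum in mouse 253. The part of either cell type in these rises was not tested.

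**Figure D4:**
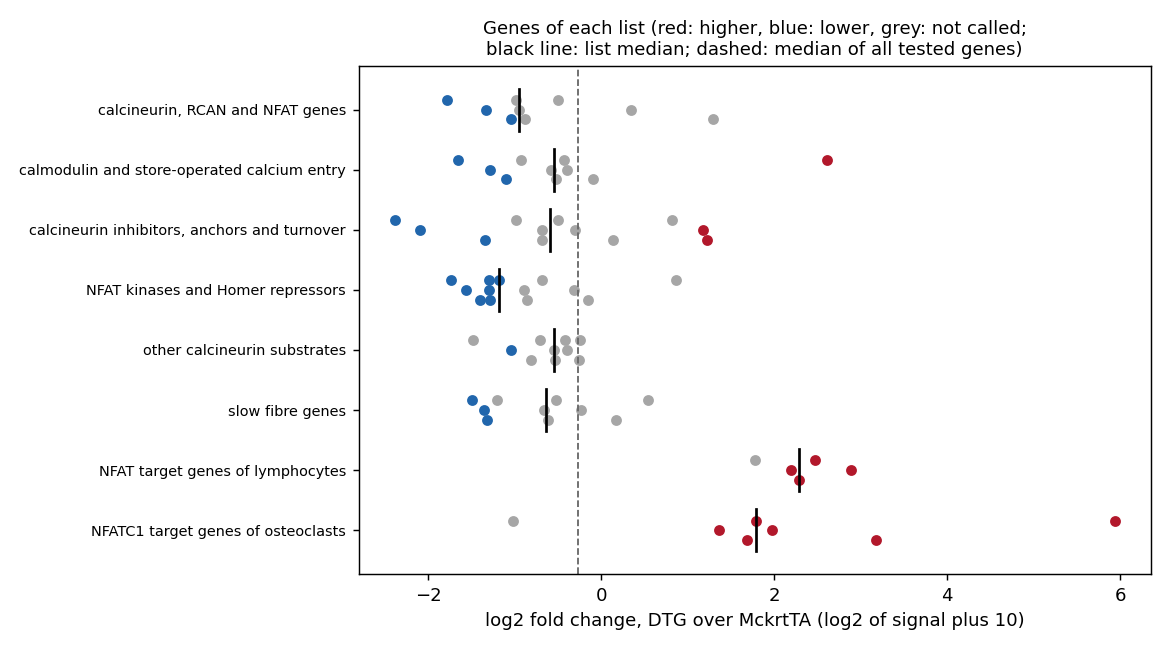
Log2 fold change of DTG over MckrtTA on the deposited scale for the tested genes of each list, coloured by call, with the list's median as a black line and the median of all tested genes (-0.26) as a dashed line. The kinase list has 7 blue points and 0 red, and the lists of NFAT targets of lymphocytes and osteoclasts have 4 and 6 red points, of which 2 in each list reached the minimum signal in DTG libraries alone.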

How the data were processed

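RNA of the gastrocnemius of 8 mice, 4 DTG and 4 MckrtTA, was analysed with groups taken from the genotype in the deposited labels. The authors used RSEM on mm10 transcripts to estimate the reads of each gene from paired reads, and deposited the estimates as signal values scaled by the upper quartile of each library, not divided by length. The labels also name BWA. The labels and the methods give different HiSeq models.

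The commonest nonzero value of a library was taken to be the worth of 1 read. Of low values, 88.5% to 89.8% came within 0.1 of whole reads, so whole reads were not recovered and no test on counts was run. A single read was worth 1.25 to 1.68 in DTG and 2.25 to 2.97 in MckrtTA libraries.

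The log2 of signal plus 10 was fitted with limma 3.58.1 in R 4.3.3, with variances moderated along a trend and no covariate, for the 15073 genes that reached a signal of 25 in at least 3 libraries, and p was adjusted over all of them. Ratios were tested with two-sided exact permutation tests in scipy 1.17.1. On simulated data for this comparison (14198 genes), limma recovered 98% of 4 fold changes and 84% of 2.5 fold changes and called 2 of 13998 unchanged genes. Only 100 genes were changed at each fold, while 30.6% of the tested genes were called in the data. The simulated rate of false calls therefore need not hold for these data.

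The 9 members and all lists were chosen with earlier results of these data known. Genes named are the members, Akt1, the other family genes, the called genes of each pathway list (all where 5 or fewer, otherwise the 4 with the smallest adjusted p in each direction) and the 3 genes most like each called member. Some genes that this rule takes are not reported here. Others named beside these were chosen after their values were seen. Adgre1 and Chp1 were matched to the table by RefSeq accession. Starts in the table count from 0 and are given counting from 1. Alternatives changed the amount added, the minimum signal, the scaling, the moderation, the threshold and the lanes, and left out each mouse. A second copy of the same values and the other deposited sheets were not used, and 0 columns of libraries were left unused.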

Additional observations from a re-analysis of the deposited data

Results flagged for a closer look

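Each of the 12 tested calcineurin, RCAN and NFAT genes and 7 ratios was examined in both groups, 38 groups of 4 mice, for a mouse far from the other 3 by Dixon's test, which chance passes in about 1 in 20 groups. The test picked out 3, and mouse 253 was the distant mouse in each. Its Ppp3r1 signal was 18003.6 against 10745 to 11618 in the other DTG mice. Its Rcan1 signal was 62869.6 against 10385 to 11422, and its ratio of Rcan1 to Rcan2 was 17.404 against 2.96 to 4.56. The cause was not tested.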

How the results depend on the processing

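Counts of called members depended on the scaling and on the lane. Members called lower were 3 on the deposited scale, 0 at equal totals, 0 in lane 1 alone and 4 in lane 8 alone. They were 7 at an adjusted p under 0.05 with no fold minimum. With 1 mouse left out they were 2 to 5, with 5 without mouse 253. Members called higher were 0, but 1 (Rcan1) at equal totals, 1 at an adjusted p under 0.05, and 0 to 0 when 1 mouse was left out. Of all genes 2207 were called higher and 2405 lower. These were 4640 and 301 at equal totals, 54 and 4 in lane 1 alone and 2505 and 2548 in lane 8 alone. At an adjusted p under 0.05 they were 3858 and 6645. Lower calls fell to 1256 under the trimmed mean and to 1281 under the median of ratios. Leaving out 1 mouse gave 1882 to 2761 higher and 2090 to 2878 lower calls. At equal totals the signs of Rcan2 (0.0025), Nfatc2 (0.45) and Nfatc3 (0.0655) turned. The cause of these changes was not tested. Each lane holds 2 mice of each group, and lane 1 holds mouse 253, whose part in the lane 1 values was not tested. The standard error of Ppp3cb was 0.39 in lane 1 and 0.08 in lane 8. Within lanes the log2 fold change of Ppp3ca was -1.25 and -1.42, of Ppp3cb -1.62 and -1.95, of Nfatc1 -0.90 and -1.18 and of Rcan1 1.80 and 0.78 in lanes 1 and 8. All 7 ratios kept their sign in both lanes and without any 1 mouse. No paired analysis was possible because the labels give no replicate numbers that the groups share and, although controls were littermates, do not say which mice shared a litter. With lane as a covariate 3 members were lower and 0 higher. With 4 mice a group an exact permutation p cannot go below 0.0286.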
